A study of Mus musculus with 6 samples.

Results

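The genes described here are 10 receptor genes by which a developing T cell sees antigen and costimulation: the coreceptor genes Cd4, Cd8a and Cd8b1, the CD3 chain genes Cd3e, Cd3d, Cd3g and Cd247, and the costimulatory and adhesion receptor genes Cd28, Cd5 and Cd2. They were chosen by name, and every probe set that the platform annotation gives to 1 of them was taken, which made 22 probe sets for 10 genes out of the 8511 genes named on the arrays. The samples were CD4+CD8+ double-positive thymocytes, sorted from Sox13 transgenic mice and from wild type littermate mice, which were all female C57BL/6 animals 6 weeks old. The series set out to find genes regulated by Sox13, an HMG-box transcription factor of the gamma-delta T cell lineage. At least 2 mice were pooled for a sort. The promoter that drives the transgene is not given in the sources used here.

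There were 2 experiments. In experiment 1 the samples were read on a pair of Affymetrix arrays with separate contents, Mu11K A and Mu11K B, and in experiment 2 on the U74A version 2 array. With 1 transgenic and 1 wild-type sample on every array type, each genotype had 3 arrays but 2 replicates. All levels below are scaled intensities: each array was set to a trimmed mean of 500, and values under 100, called the floor, were raised to 100 before log2 was taken. A log2 ratio is transgenic over wild type, and 1 unit is a 2-fold difference. Sox13 itself read 5951 in the transgenic against 27.4 in the wild-type sample of experiment 1, where the wild-type value is under the floor and the difference at least 59.5-fold. It read 3832 against 599.6 in experiment 2, a 6.39-fold difference.

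On the surface of an alpha-beta T cell, the antigen receptor has no signaling tail of its own and depends on the CD3 epsilon, delta and gamma chains and on the zeta chain, encoded by Cd247. CD4 and CD8 bind MHC class II and class I molecules and bring the kinase LCK to the receptor. CD28 adds the costimulatory signal, CD5 dampens signaling in thymocytes, and CD2 strengthens adhesion. A double-positive thymocyte carries CD4 and CD8 together, an intermediate stage between the double-negative progenitor and the CD4 or CD8 single-positive cell.

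Cd28 was the member that stood apart. It read 7.24-fold lower in the transgenic than in the wild-type sample of experiment 1 and 1.35-fold lower in experiment 2. The remaining 18 measured probe sets all lay between 0.772-fold and 1.60-fold of the wild-type level. No member passed the test over both experiments: limma with Benjamini-Hochberg adjustment over all 3237 genes measured in both called 0 of the 9 members tested, and 1 had an unadjusted p under 0.05 (Cd28). With each array's median in place of its trimmed mean as the scale, Cd28 passed (limma adjusted p = 0.0488), and the other 8 alternatives, the unpaired limma fit among them, called 0. In bulk RNA, fewer cells of a type and less RNA per cell cannot be told apart. The background was 5 of 3237 genes called, all 5 higher, or 0.154%, with 0% called lower and 6.43% at an unadjusted p under 0.05. Under quantile, median and loess scaling the split of higher and lower calls was 12 and 3, 22 and 5, and 13 and 2. The test rests on 2 ratios a gene, and the few arrays limit how precise any value here can be.

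By the size of the ratio alone, 0 of 20 measured member probe sets were 2-fold or more higher and 1, that of Cd28 on Mu11K A, was 2-fold or more lower. Over all probe sets above the floor, Mu11K A had 4.56% that were 2-fold or more higher and 11.7% lower, Mu11K B had 6.15% higher and 13.9% lower, and U74A had 0.971% higher and 0.563% lower. Per gene, 5.25% were 2-fold or more higher and 11.7% lower in experiment 1, and 0.855% and 0.446% in experiment 2. A 2-fold ratio was thus much more common in experiment 1.

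**Figure D1:**
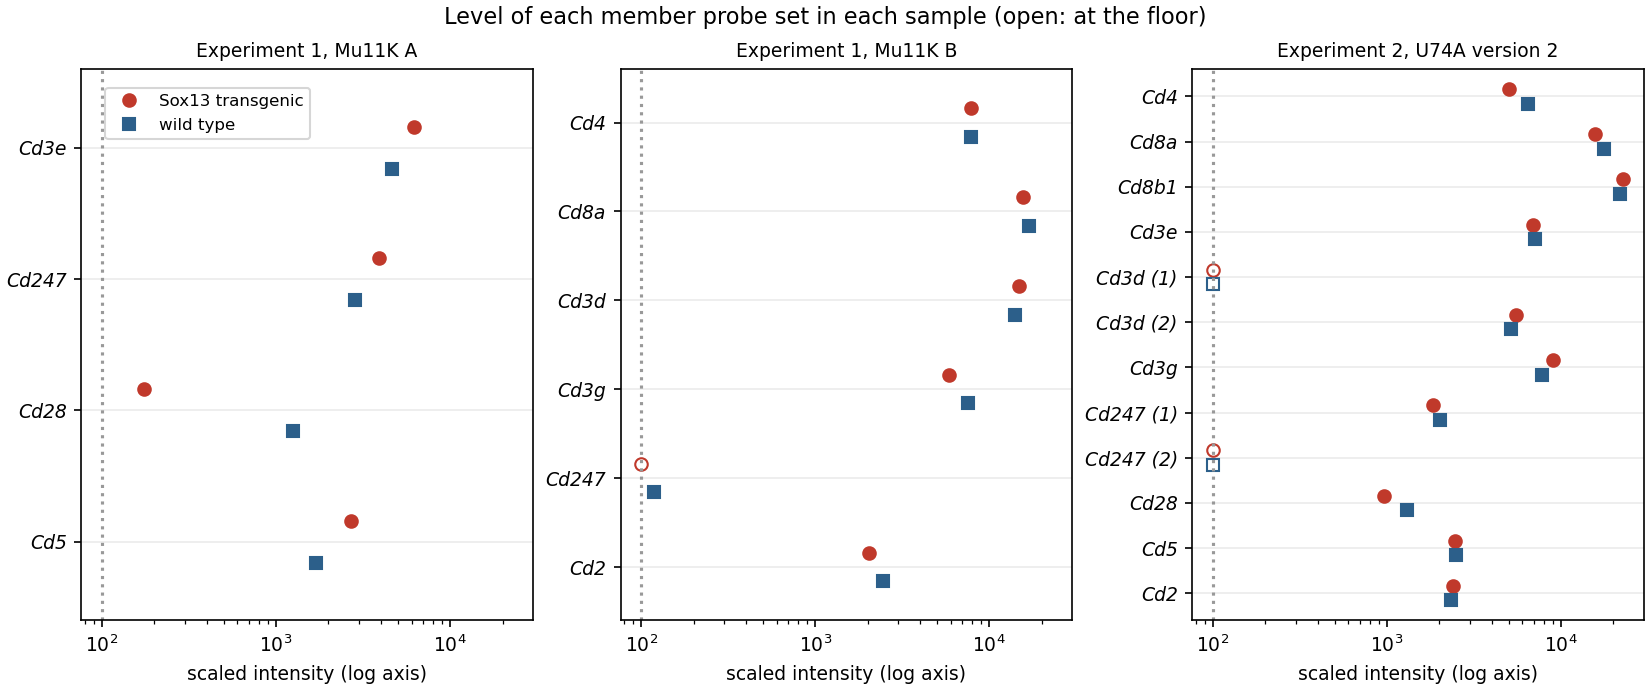
Scaled intensity (log axis) of each member probe set in the Sox13 transgenic sample (red circles, upper) and the wild-type sample (blue squares, lower) of each array type, 1 sample each, where the dotted line is the floor of 100, open symbols lie at it, and a number in brackets separates probe sets of 1 gene. The only wide gap between the symbols is that of Cd28 on Mu11K A, at 173.5 against 1256.

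The coreceptor genes were high in both genotypes. Cd4 read 7854 in the transgenic and 7876 in the wild-type sample on Mu11K B, and 5040 against 6496 on U74A. Cd8a read 15638 against 16859 on Mu11K B, and 15638 against 17759 on U74A. Cd4 was level in experiment 1 at the trimmed mean scale, with a log2 ratio of -0.0041. It was 1.29-fold lower in the transgenic sample of experiment 2. Cd8a was 1.08-fold and 1.14-fold lower in the transgenic samples. Cd8b1, the CD8 beta chain gene, was measured in experiment 2 alone and read 22762 against 21921, a log2 ratio of 0.05 (-0.010 with quantile scaling).

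Neither tested coreceptor gene differed by more than the spread behind the test. The mean log2 ratio of Cd4 was -0.19 ± 0.34 (limma SE, n = 2 experiments; adjusted p = 0.949), with a 95% interval from -0.92 to 0.55. That of Cd8a was -0.15 ± 0.34 (adjusted p = 0.966 in limma, n = 2 experiments), with an interval from -0.88 to 0.58. The intervals do not show that the genotypes are alike. With median scaling, both means turned positive, at 0.072 and 0.11. The experiments then had opposite signs, with log2 ratios of 0.45 and -0.31 for Cd4 and of 0.35 and -0.13 for Cd8a. The cells were sorted for CD4 and CD8 on the surface, so the presence of these transcripts checks the label and is no finding.

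The CD3 chain genes Cd3g, Cd3d and Cd3e lie side by side on mouse chromosome 9, with Cd3g and Cd3d on opposite strands. Their promoters are shown because the values of these neighbours are compared next, together with that of Cd8a. They come from RefSeq on GRCm38.p6 and run from 250 bases before to 50 bases after the gene start, 5′ to 3′ on the gene's strand. Of the 10 members, 6 had a promoter in that set. Capitals mark the E-box CACCTG, read on either strand, in the CD3 promoters and the Sox core AACAAT in that of Cd8a.
Cd3g promoter, chr9:44980382-44980681, minus strand: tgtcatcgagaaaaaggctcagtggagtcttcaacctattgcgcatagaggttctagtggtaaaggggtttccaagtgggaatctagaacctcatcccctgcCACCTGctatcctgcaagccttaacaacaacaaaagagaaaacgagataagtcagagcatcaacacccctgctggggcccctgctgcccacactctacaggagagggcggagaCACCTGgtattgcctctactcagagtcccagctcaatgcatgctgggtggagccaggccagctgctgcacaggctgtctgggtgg
Cd3d promoter, chr9:44981536-44981835, plus strand: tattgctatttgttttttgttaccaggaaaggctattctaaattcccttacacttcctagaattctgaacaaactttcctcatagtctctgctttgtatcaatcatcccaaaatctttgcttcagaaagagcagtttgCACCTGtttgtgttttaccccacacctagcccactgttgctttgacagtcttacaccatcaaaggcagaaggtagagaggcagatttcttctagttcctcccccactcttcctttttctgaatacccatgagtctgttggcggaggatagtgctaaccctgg
Cd3e promoter, chr9:45009562-45009861, minus strand: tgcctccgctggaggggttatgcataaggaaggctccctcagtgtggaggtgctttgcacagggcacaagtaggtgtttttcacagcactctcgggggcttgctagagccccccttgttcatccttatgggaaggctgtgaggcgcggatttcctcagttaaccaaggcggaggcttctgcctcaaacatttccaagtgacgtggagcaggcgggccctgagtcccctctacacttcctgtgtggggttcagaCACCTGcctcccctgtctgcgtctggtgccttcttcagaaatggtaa
Cd8a promoter, chr6:71373177-71373476, plus strand: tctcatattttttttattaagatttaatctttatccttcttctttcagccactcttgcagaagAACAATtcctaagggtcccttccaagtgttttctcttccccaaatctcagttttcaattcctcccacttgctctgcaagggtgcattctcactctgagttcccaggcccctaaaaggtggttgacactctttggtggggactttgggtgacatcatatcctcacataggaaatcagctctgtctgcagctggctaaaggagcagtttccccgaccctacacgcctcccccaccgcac

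Of 8 motifs searched on both strands, AACAAT was found in 1 of the 6 member promoters, that of Cd8a, and in 10.7% of all 32851 promoters of the same length. AACAAAG, a Sox and TCF/LEF type word, was found in 0 of 6 and in 5.85% of all. CACCTG was found in 5 of 6, those of Cd3g, Cd3d, Cd3e, Cd247 and Cd5, and in 20.2% of all. It was marked after its matches were seen. The E-box word CAGCTG was found in 2 of 6 and in 16.3% of all, and the general E-box CANNTG, which contains CACCTG and CAGCTG, in 6 of 6 and in 72.3%. AGGAAG was found in 4 of 6 and in 35.4% of all, TGACATCA in 1 and in 3.62%, and GATA in 4 and in 57.9%. A match describes these windows and shows no binding.

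The 3 neighbouring CD3 genes did not share a direction in experiment 1 at the trimmed mean scale. Cd3e read 6210 in the transgenic and 4633 in the wild-type sample on Mu11K A, a log2 ratio of 0.42. Cd3d, on Mu11K B, read 14857 against 14134, a log2 ratio of 0.07. Cd3g, also on Mu11K B, read 5850 against 7582, a log2 ratio of -0.37. Cd3e was thus higher in the transgenic sample, Cd3d nearly level and Cd3g lower. With median scaling all 3 were higher, at log2 ratios of 0.76 for Cd3e, 0.53 for Cd3d and 0.084 for Cd3g.

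In experiment 2 the order was another one. Cd3e read 6900 in the transgenic and 7124 in the wild-type sample, a log2 ratio of -0.05. Cd3d read 5520 against 5183 and Cd3g 8991 against 7805, log2 ratios of 0.09 and 0.20. The second Cd3d probe set of U74A lay below the floor in both samples, at 1.21 and 1.21, and gave no ratio. Cd3d was the member whose experiments differed least, by 0.02 on the log2 scale, and the signs of Cd3e and Cd3g were opposite between the experiments. With median scaling each had 1 sign, at 0.0090 for Cd3e and 0.26 for Cd3g in experiment 2.

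Cd247 was read by 2 pairs of probe sets, each pair drawn from its own source sequence. The brighter one read 3921 in the transgenic and 2845 in the wild-type sample on Mu11K A, and 1845 against 2025 on U74A, log2 ratios of 0.46 and -0.13. The other lay near or below the floor, at 85.9 against 118.8 on Mu11K B and at 51.7 against 64.8 on U74A. Only the wild-type sample of Mu11K B was above the floor there, by a difference of at least 1.19-fold. The 2 probe sets of experiment 1 thus had opposite signs, and their mean was 0.11.

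Over both experiments the mean log2 ratios of the CD3 chain genes were close to 0. They were 0.19 for Cd3e, 0.08 for Cd3d, -0.09 for Cd3g and -0.01 for Cd247, with limma SEs of 0.34 to 0.35 and adjusted p values of 0.948, 0.980, 0.978 and 0.992 (limma). Their 95% intervals reached from -0.83 for the lower bound of Cd3g to 0.93 for the upper bound of Cd3e. Another scaling turned the sign of 3 of these genes: with median scaling Cd3g stood at 0.17 and Cd247 at 0.16, and with quantile scaling Cd3d stood at -0.015. Cd247 also stood at 0.16 wherever its dim probe set was left out.

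**Figure D2:**
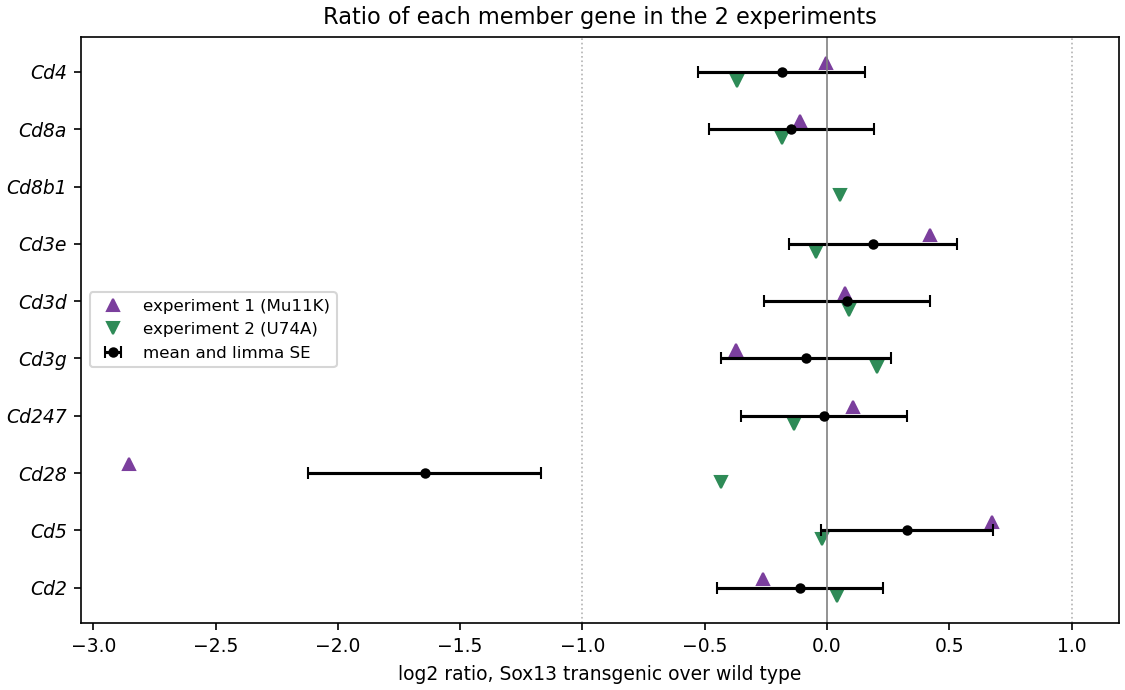
Log2 ratio of Sox13 transgenic over wild type for each member gene in experiment 1 (triangles up) and experiment 2 (triangles down), with their mean and limma SE in black, where dotted lines mark a 2-fold difference and Cd8b1 was measured in experiment 2 alone. Cd28 at -2.86 in experiment 1 is the only member past 2-fold, and all other ratios lie between -0.43 and 0.68.

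Cd28, the receptor for CD80 and CD86, had 1 probe set on Mu11K A and another on U74A, drawn from the same source sequence. It read 173.5 in the transgenic and 1256 in the wild-type sample on Mu11K A, and 963.5 against 1302 on U74A. It was thus lower in the transgenic sample of each pair, and by far more in experiment 1. Of the 3882 probe sets above the floor on Mu11K A, 1, for Pdk1, had a lower ratio than Cd28. Of the 7109 on U74A, 8.43% had a lower ratio.

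The mean log2 ratio of Cd28 was -1.64 ± 0.48 (limma SE, n = 2 experiments; unadjusted p = 0.00418, adjusted p = 0.521), with a 95% interval from -2.67 to -0.62. The mean ranked 14 of 3237 genes by size. The ratios of the experiments lay 2.42 apart on the log2 scale, and 17 genes, Cd28 included, differed by at least that much, where the median difference over all genes was 0.47. The adjusted p was 0.0488 with median scaling and ranged up to 0.999 over the 9 alternatives, while the mean stayed between -1.64 and -1.45. Without experiment 1 the log2 ratio of Cd28 was -0.43, and without experiment 2 it was -2.86.

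Among 2104 genes with every probe set above the floor on all arrays, those nearest to Cd28 in their pair of log2 ratios were Tnfaip3 at -2.48 and -0.23, Hnrnph1 at -2.43 and -0.10, and Rdx at -2.39 and -0.16, at distances of 0.43, 0.54 and 0.54. None of them passed the test (limma adjusted p from 0.648 to 0.712). This likeness rests on 2 values a gene.

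**Figure D3:**
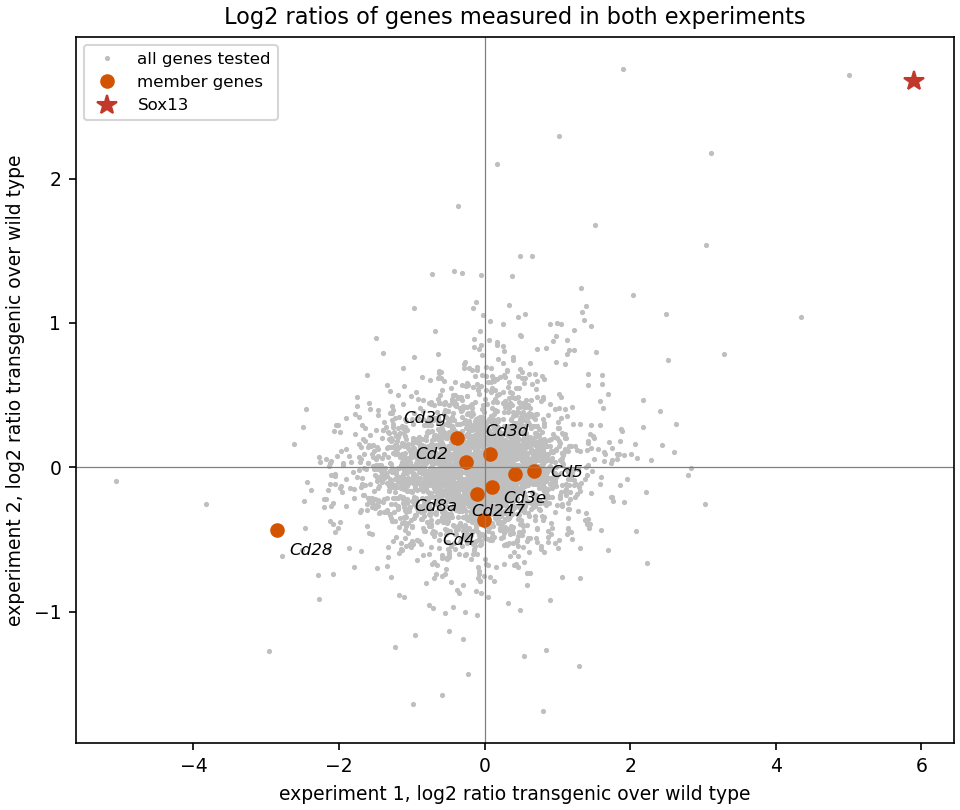
Log2 ratio of Sox13 transgenic over wild type in experiment 1 (horizontal) and experiment 2 (vertical) for the 3237 genes measured in both, with the 9 member genes in orange and Sox13 as a star. Apart from Cd28 at -2.86 and -0.43, the members lie within the bulk of the genes.

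Cd5, a scavenger receptor family member that restrains receptor signaling, differed in experiment 1 and hardly in experiment 2. It read 2697 in the transgenic and 1688 in the wild-type sample on Mu11K A, a 1.60-fold difference, and 2471 against 2509 on U74A. The mean over both experiments was 0.33 ± 0.35 on the log2 scale (adjusted p = 0.892 in limma), with a 95% interval from -0.43 to 1.09. Under median scaling its log2 ratio in experiment 1 was 1.01, just past 2-fold. Cd6, its neighbour on chromosome 19 and a related receptor gene, read 3233 against 2550 on Mu11K A, and 4918 against 4727 and 2257 against 2100 on U74A, so it was higher in the transgenic sample in each probe set. It did not pass either (adjusted p = 0.947, limma).

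Cd2, the adhesion receptor for CD48 in the mouse, read 2038 in the transgenic and 2444 in the wild-type sample on Mu11K B, and 2405 against 2338 on U74A. The mean over both experiments was -0.11 ± 0.34 on the log2 scale (adjusted p = 0.975 in limma), with a 95% interval from -0.85 to 0.62. The sign differed between the experiments, and under median scaling the mean was 0.15.

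Taken as a group, 3 of the 9 members tested were lower in both experiments (Cd4, Cd8a and Cd28), 1 was higher in both (Cd3d), and 5 had opposite signs. Over all 3237 genes, 30.4% were lower in both and 23.9% higher in both. The tally turned with median scaling, to 1 lower in both (Cd28), 5 higher in both (Cd3e, Cd3d, Cd3g, Cd5 and Cd2) and 3 opposite, beside 16.8% lower and 38.2% higher over all genes. Cd3d was higher in both under neither quantile nor loess scaling. The median log2 ratio of the members was -0.0041 in experiment 1 over 9 genes and -0.03 in experiment 2 over 10 genes, beside -0.07 over 3927 genes and -0.03 over 5377 genes. With median scaling the member medians were 0.39 and 0.02, beside 0.27 and 0.03 over all genes. Their spread was wider in experiment 1, with an SD of 1.03, than in experiment 2, with 0.20, as it was over all genes, with 0.76 and 0.33. On Mu11K A, the 3 probe sets other than that of Cd28 (Cd3e, Cd247 and Cd5) lay above 0, from 0.42 to 0.68, and 5 of the 6 member probe sets on Mu11K B lay below 0. With median scaling 1 of these 6 lay below 0, and with quantile and loess scaling all 6 did. The medians over all probe sets above the floor were -0.07 on Mu11K A and -0.15 on Mu11K B.

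The genotypes of experiment 1 also differed in measures outside these genes. The deposited values of its wild-type arrays were all whole numbers, against 10.3% and 10.6% of the values of its transgenic arrays. The median deposited intensity was 646.6 in the transgenic and 815 in the wild-type sample on Mu11K A, and 396.3 against 544.5 on Mu11K B, where the trimmed means were nearly equal. In experiment 2 the medians were 65.5 against 68. The 3′ to 5′ ratio of the actin control was 1.08 in the transgenic and 1.32 in the wild-type sample on Mu11K B, and 1.36 against 1.58 on U74A, with a transgenic value of 1.09 on Mu11K A. That of the Gapdh control was 1.18 against 0.870 on Mu11K B and 0.766 against 0.792 on U74A. The part of these differences in the Cd28 and Cd5 values was not tested.

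Of 30 other T cell surface receptor genes listed, 22 were on the arrays and 12 were tested, and 0 passed in limma, with 2 at an unadjusted p under 0.05. In this list 6 genes were higher in both experiments, 2 lower and 4 opposite. Their median was 0.43 in experiment 1 and -0.07 in experiment 2. Cd7, an immunoglobulin family receptor, had log2 ratios of 0.99 and 1.00, and Ptcra, the pre-T cell receptor alpha chain gene, of 1.61 and 0.58. The tetraspanin gene Cd53 had 0.72 and 0.49, and the tetraspanin gene Cd81 had -0.34 and -0.38. The inhibitory receptor gene Lag3, next to Cd4 on chromosome 6, had 0.10 and 0.11. The inhibitory receptor gene Ctla4, next to Cd28 on chromosome 1, lay below the floor in both genotypes on Mu11K B and U74A.

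Ligands of the costimulatory receptors were mostly below the floor. Of 12 listed, 9 were on the arrays and 2 were tested, with 0 passed in limma and 0 at an unadjusted p under 0.05. Cd80 and Cd86, which encode the ligands of CD28, lay below the floor in every sample that carried them. Pvr, a ligand gene, had log2 ratios of 0.52 and 0.15. Cd48, which encodes the ligand of CD2, was the other one tested and had opposite signs, at 0.29 and -0.11.

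Genes of the kinases, phosphatases and adaptors that act at the receptor tails had medians of -0.13 and -0.05. Of 27 listed, 22 were on the arrays and 15 were tested, with 0 passed in limma and 1 at an unadjusted p under 0.05, and 4 were higher in both experiments, 7 lower and 4 opposite. Pik3r1, a regulatory subunit gene of the PI3 kinase that binds the CD28 tail, lay below the floor in the transgenic sample of experiment 1, at least 2.76-fold lower, and had a log2 ratio of -0.22 in experiment 2. The phosphatase gene Ptpn22 had -1.09 and -0.29, and the ubiquitin ligase gene Cbl -1.12 and -0.14. Csk, the kinase that holds LCK inactive, had 1.01 and 0.27. The median of this list turned positive under median scaling, at 0.25 and 0.01.

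Transcription regulators known at the Cd4 and Cd8 loci had medians of -0.38 and -0.04. Of 20 listed, 15 were on the arrays and 14 were tested, with 0 passed in limma and 1 at an unadjusted p under 0.05, and 0 were higher in both experiments, 6 lower and 8 opposite. Satb1, which organises chromatin in thymocytes, had log2 ratios of -0.55 and -0.34, the repressor gene Gfi1 -0.35 and -0.60, the E protein gene Tcf12 -1.43 and -0.31 and the remodeler gene Chd4 -0.26 and -0.13. Under median scaling the medians of this list were -0.05 and 0.01.

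Other double-positive genes had medians of -0.46 and -0.02. Of 10 listed, 7 were on the arrays and 6 were tested, with 0 passed in limma and 2 at an unadjusted p under 0.05, and 1 was higher in both experiments, 3 lower and 2 opposite. The higher one was Ptcra, at 1.61 and 0.58, which with Rag2, of the recombinase, at -2.02 and 0.08, made up the 2 under an unadjusted p of 0.05. Dntt, which adds bases at receptor gene joints, had log2 ratios of -0.37 and -0.02, the lipid-presenting Cd1d1 -1.12 and -0.05 and Cd24a -0.27 and -0.03. Under median scaling the medians were -0.07 and 0.04.

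**Figure D4:**
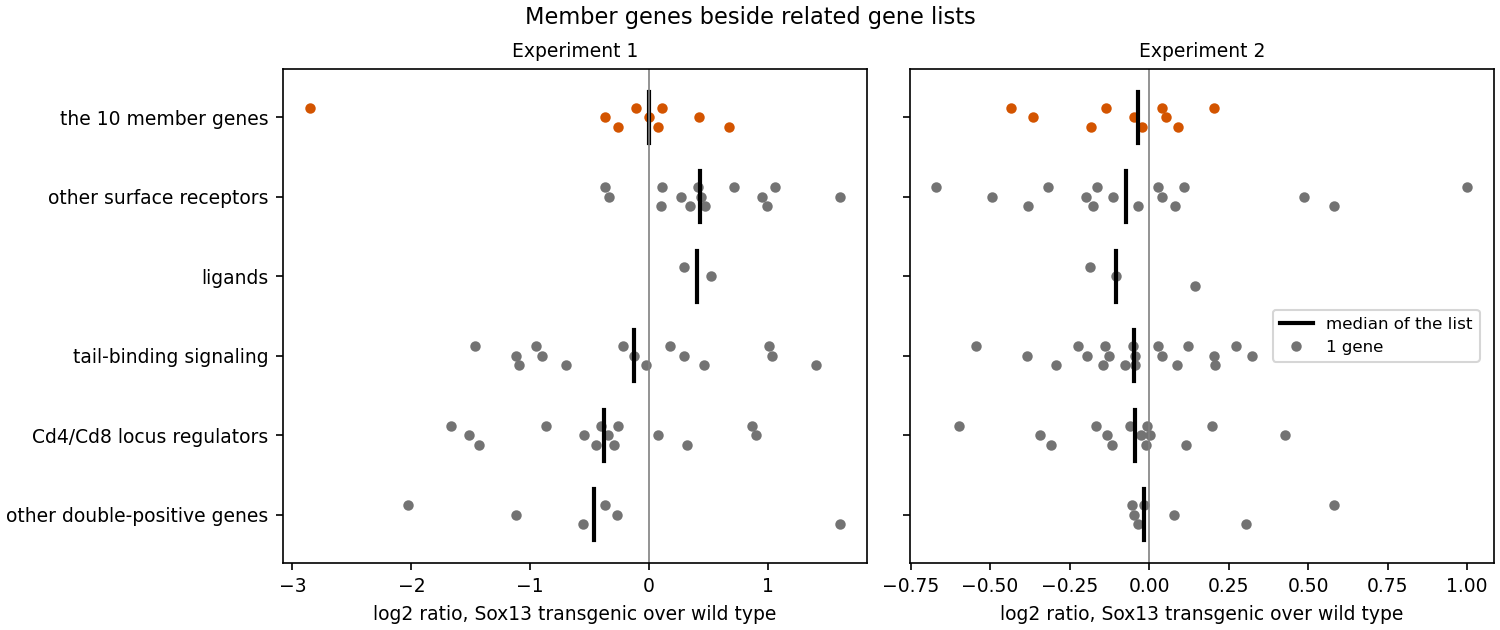
Log2 ratio of Sox13 transgenic over wild type of each measured gene (dots) in the members and in related lists, with the median of each list as a bar, for experiment 1 (left) and experiment 2 (right), whose axes differ in range. The member medians lie at -0.0041 and -0.03.

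Markers of other cells were summed on each array over the probe sets above the floor in that sample, with those below it counted as 0, so that the sums of a pair can rest on different genes. The sum of double-negative progenitor markers was 7178 in the transgenic and 715.8 in the wild-type sample on Mu11K A, 7334 against 2144 on Mu11K B and 5704 against 4192 on U74A. On Mu11K A the transgenic sum held Notch1 at 3957 and Dtx1 at 3221, and the wild-type sum held Notch1 alone, with Dtx1 below the floor. Of this list 3 genes were tested (Notch1, Notch3 and Dtx1), all 3 with a higher gene value in both experiments, and Dtx1 passed (limma adjusted p = 0.00428). For Notch1 on U74A, however, the bright probe set was level, at 2299 in the transgenic and 2302 in the wild-type sample. Only the dim one was higher there, at 342.7 against 225.9. Of the genes measured in 1 experiment, Cd34 and Kit were lower in experiment 1, with log2 ratios of -0.74 and -0.21. In experiment 2 Hes1 and Flt3 were lower, at -0.32 and -0.21, and Il7r was nearly level, at 0.04. Il2ra lay below the floor on every array.

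Markers of mature single-positive cells summed to 15101 in the transgenic and 6569 in the wild-type sample on Mu11K A, 3807 against 927.2 on Mu11K B and 15198 against 11140 on U74A, with 4 of 5 tested genes higher in both experiments, 1 lower and 0 passed in limma. Of the 4 at an unadjusted p under 0.05, 3 were higher (Socs3, H2-D1 and H2-K1) and Emb was lower, at -0.99 and -0.53. The Mu11K B values of this list were those of 1 H2-D1 probe set. On Mu11K A 1 probe set each of H2-D1 and H2-K1 gave 4020 and 3719 of the 15101, and 1653 and 1478 of the 6569. On U74A 1 H2-D1 probe set gave 6800 of the 15198 and 4280 of the 11140. Gamma-delta markers summed to 3971 against 2439, 8833 against 1923 and 3810 against 2414, with 4 of 5 higher in both, 0 passed and 4 at an unadjusted p under 0.05. On Mu11K B Gzma, which is also on the NK cell list, gave 8604 of the 8833 and 1535 of the 1923. Id3 had opposite signs, at 0.22 and -0.41, and Maf, measured in experiment 1 alone, was lower, at -1.20. S100a6 lay below the floor in the wild-type samples of both experiments, so its ratios are bounds. On U74A the wild-type values of Trgv1 and of both Blk probe sets also lay below the floor. With only probe sets above the floor on both arrays, 2 genes of this list were tested. Its median in experiment 2 was then 0.33 instead of 1.06. Under quantile, median and loess scaling Socs3, Gzma and Trgv1 passed, and S100a6 passed with loess scaling. Notch1, of the double-negative list, passed with median scaling. B cell markers summed to 8648 against 5345, 22854 against 13649 and 18362 against 15896, with 4 of 6 higher in both, 0 passed and 3 at an unadjusted p under 0.05. These 3 were H2-Aa, H2-Ab1 and Cd74. Ighm gave 13180 of the 22854 and 9859 of the 13649 on Mu11K B. Cd79b and Ms4a1 had opposite signs, with log2 ratios of 0.58 and -0.23 and of -0.14 and 0.83. Cd22 and Ebf1 lay below the floor where they were read.

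Myeloid markers summed to 2545 in the transgenic and 2641 in the wild-type sample on Mu11K A. The sums were 718.9 against 642.4 on Mu11K B and 1823 against 1029 on U74A. Of 4 tested genes, 1 was higher in both experiments (Ctss, at log2 ratios of 1.32 and 1.24). Another 1 was lower in both (Cd14, at -0.12 and -0.19), and 2 had opposite signs. In limma 0 passed and 1, Ctss, had an unadjusted p under 0.05. With median scaling Ctss passed. Erythroid markers summed to 823.3 against 996.8, 3347 against 941.2 and 1934 against 764.5, with 2 of 5 higher in both and 2 lower. The 2 higher genes, Hba-a1 and Hbb-b2, passed (limma adjusted p = 0.0154 and 0.0399), and the 2 lower ones did not, with log2 ratios of -0.98 and -1.64 for Car2 and of -0.52 and -0.07 for Gata1. For Hba-a1 on Mu11K B, 1 probe set read 1862 against 131.0 and another was level, at 299.4 against 305.5. Hbb-b2 lay below the floor in the wild-type sample of U74A. Neither Dtx1 nor these globin genes passed with a floor of 50, without a filter or in the unpaired fit. Dtx1 and Hbb-b2 also did not pass with the brightest probe set, nor did Hbb-b2 with a floor of 200. With only probe sets above the floor on both arrays, Dtx1 and Hbb-b2 dropped out of the test. Hba-a1 passed with the brightest probe set, with a floor of 200 and with probe sets above the floor on both arrays. Of the NK cell list, Gzma alone was tested and did not pass (limma adjusted p = 0.181), and Klrb1c, Klrd1, Klrk1, Ncr1 and Prf1 lay below the floor where they were read. Stroma markers above the floor were none against 1 probe set on each Mu11K array, both of Col1a1, at 31.7 against 114.6 on Mu11K A and 95.8 against 117.4 on Mu11K B, and they summed to 941.1 against 1306 on U74A, with 1 gene tested, 0 passed and 0 at an unadjusted p under 0.05. The part of such cells in the member values was not tested.

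**Figure D5:**
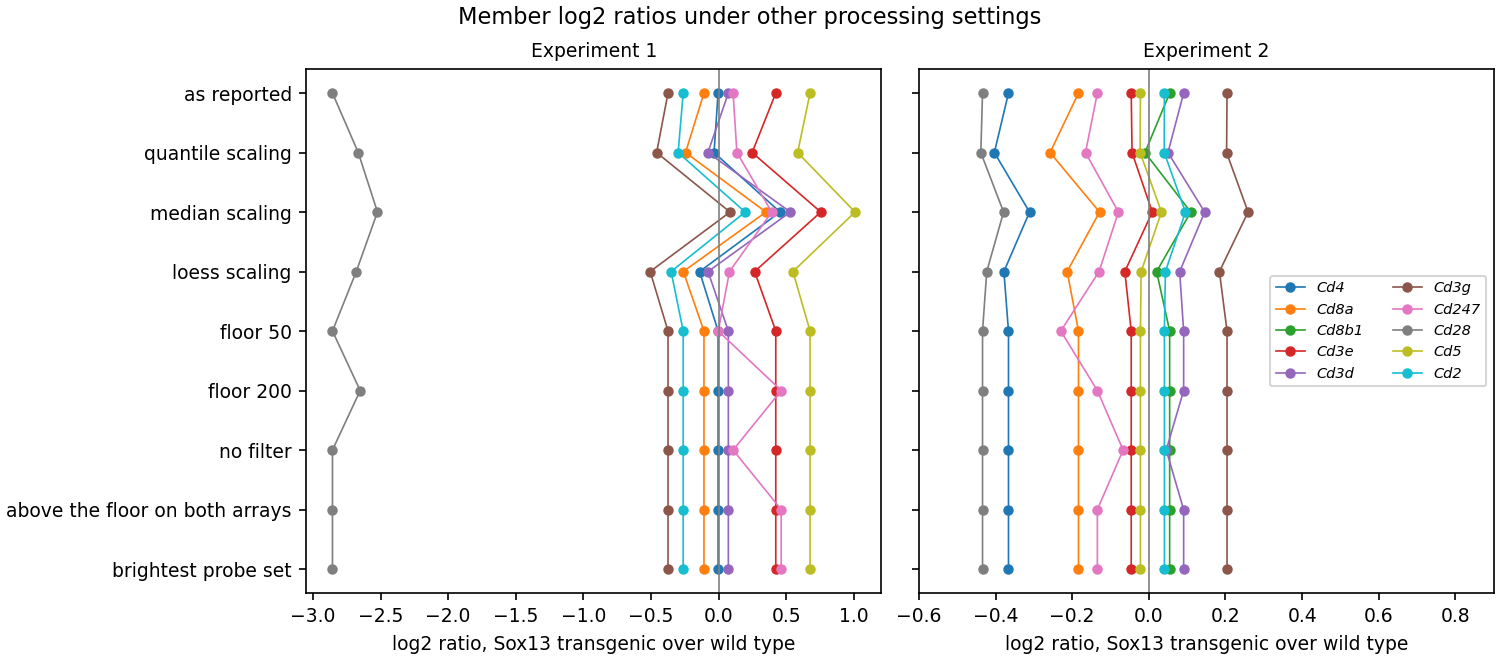
Log2 ratio of Sox13 transgenic over wild type of each member gene in experiment 1 (left) and experiment 2 (right), with axes of different range, as reported (top) and under other settings. Cd28 stays at -2.52 or lower in experiment 1 under every setting drawn, while median scaling moves the other members of experiment 1 upward.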

How the data were processed

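RNA of sorted thymocytes was hybridised to Affymetrix arrays. The deposited values are 1 intensity per probe set, on a linear scale. Per the labels' design text, the authors used Microarray Analysis Software versions 4 and 5, and MAS5 is named for U74A in the submitters' processing notes. Neither the scaling target nor each array's software version is stated there. The scan records of experiment 2 give the same day for both arrays. No scan record of the transgenic arrays of experiment 1 was used here, so batch and genotype cannot be told apart in it.

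Control probe sets (55 on each Mu11K array, 66 on U74A) and 21 Mu11K A probe sets with no wild-type value were left out. Scaling set the 2% trimmed mean of every array to 500, and lower values were raised to the floor of 100. Probe sets with 1 symbol in the platform annotation named a gene, and 0 symbols changed against RefSeq of GRCm38.p6. Those that exceeded the floor in either sample of a pair were averaged per gene and experiment, Mu11K A and B together.

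limma 3.58.1 (R 4.3.3) tested the mean log2 ratio of the 2 experiments against 0 in a two-sided test, and adjusted p-values (Benjamini-Hochberg) under 0.05 passed. Each ratio is taken within a pair, so experiment is the block. The prior had 12.1 degrees of freedom and outweighs a gene's own spread. Within an array type there was no test. The fit was checked on simulated ratios, with a common normal spread in each experiment and the same added change in both. The check therefore does not cover genes that differ in spread or changes that differ between the experiments. p-values rest on the spread between the 2 experiments, which differ in pools and in array type, and not on that between mice. The members and lists were chosen with earlier results of these data known. Named genes are the members, Sox13, the 3 genes most like Cd28 and, per list, genes past the test or up to 4 with the same sign in both experiments, by the smaller ratio. Chromosomal neighbours, Pdk1, Rag2, Cd48 and genes named as below the floor were added after their values were seen. So were marker genes of 1 experiment, of opposite signs or under another scaling. Alternatives were other scalings, floors, filters and probe set rules and an unpaired fit.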

Additional observations from a re-analysis of the deposited data

How the results depend on the processing

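Of 81 member means recomputed under 9 alternatives, 70 kept their direction and their side of the threshold. This count overstates how stable the means are. The unpaired fit gives the same mean by design. The floors, filters and probe set rules left the means of Cd4, Cd8a, Cd3e, Cd3g, Cd5 and Cd2 unchanged. With each array's median as the scale, which moved the median of all genes in experiment 1 to 0.27 from -0.07 (0.06 with quantile and 0.04 with loess scaling), 1 member gene, Cd28, passed in limma instead of 0. The same setting turned the means of Cd4 (0.072), Cd8a (0.11), Cd3g (0.17), Cd247 (0.16) and Cd2 (0.15) positive. Quantile scaling turned Cd3d to -0.015. Cd247 was also positive with a floor of 200, with only probe sets above the floor on both arrays and with the brightest probe set, at 0.16 each, where its dim probe set drops out, and without a filter, at 0.020. The count of all genes past the test was 15, 27 and 15 with quantile, median and loess scaling (higher and lower: 12 and 3, 22 and 5, 13 and 2), 5 with a floor of 200, 2 with probe sets above the floor on both arrays, 1 with the brightest probe set, 0 with a floor of 50 and 0 without a filter. The unpaired fit, with no replicate block, called 0 genes and 0 members. Leaving out 1 experiment leaves 1 ratio and no test. The cause of the other changes was not tested. All 99 recomputed probe set ratios moved by less than the scaled median absolute deviation of the ratios on their array. The scaling, by a constant above 1, matches this deviation to the SD of a normal distribution. A floor of 50 or 200 cannot move a ratio whose values both lie above it, so part of the 99 could not change. Of the 99 ratios, 9 changed sign: 6 with median scaling (Cd4, Cd8a, Cd3g and Cd2 on Mu11K B, Cd3e and Cd5 on U74A), 2 with quantile (Cd3d on Mu11K B, Cd8b1 on U74A) and 1 with loess scaling (Cd3d on Mu11K B).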
